A study of Mus musculus with 12 samples.

Results

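Dchs1, Fat1, Fat4, Vangl2, Celsr1 and Prickle1, 6 genes of planar cell polarity, were followed in the atrioventricular canal and the ventricle of the mouse embryonic heart. They were found by their symbol in the array platform's probe-to-gene table, and each gene was read from its brightest probe, judged by the mean of all 12 arrays. They were 6 of 19057 genes with such a probe. Each of them exceeded background on every array of 1 or more groups.

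RNA came from the atrioventricular canal (AVC), where the endocardial cushions that become the valves form, and from the primary ventricle, labelled LV. Embryos of embryonic day 9 (E9) or of embryonic day 10 (E10) were dissected, so that there were 4 groups of 3 Illumina Mouse WG-6 v2 arrays, 2 of the AVC and 2 of the LV. No treatment or mutation is named for any of the groups. Neither the labels nor the methods give the strain, the sex of the embryos, how many were pooled for an array or whether replicates were separate litters. P-values therefore measure no more than the spread between these arrays, which may be technical.

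Planar cell polarity is the alignment of cells, and of their cilia and divisions, within the plane of a tissue. In its Fat and Dachsous branch, Dchs1 and Fat4 are giant cadherins on neighbouring cells that bind each other, and Four-jointed (Fjx1 in the mouse) is a Golgi kinase that tunes this binding. In the core branch, the adhesion receptor Celsr1 joins cells, Vangl2 is a membrane protein placed on one side of a cell, and Prickle1 is its cytoplasmic partner. Fat1 is a related cadherin that acts on actin and on cell migration. Dchs1 is known in the heart because mutations of human DCHS1 have been linked to mitral valve prolapse, and the mitral valve arises from the AVC cushions examined here.

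Values are the deposited intensities, which were background subtracted and could fall below 0. The most negative value of an array, with its sign dropped, served as its background limit (22.4 to 29.6), and a gene beyond that limit was counted as above background. Log2 differences come from limma fitted over all probes, with values under 1 set to 1, and called means an adjusted p below 0.05. Levels of different genes come from different probes and were not compared with each other.

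Sums of marker lists separated the labelled tissues. The summed intensity of 8 cushion mesenchyme markers was 4842 to 8263 on the 6 AVC arrays and 1122 to 2058 on the 6 LV arrays. The study took the E9 AVC as a stage before endocardial cells turn into cushion mesenchyme. At E9 this list therefore need not mark mesenchyme, and Postn of the list was above background on no E9 array. The sum of 5 AVC myocardium markers was 1419 to 3119 in the AVC and 121 to 490 in the LV, with Msx2 of that list below background on every array. The sum of 7 chamber myocardium markers was 29800 to 42294 in the AVC and 66688 to 75924 in the LV, and most of it was Nppa and Myl2. Of these 7 markers, 2 were called lower in the AVC at each age, beside 0.168% of all genes at E9 and 0.241% at E10. Gja5 went the other way at E9 without a call, with means of 488 in the AVC and 433 in the LV. LV E10 replicate 1 stood apart from its group. Its mean correlation with the other 2 LV E10 arrays over genes above background on all arrays was 0.93, and its closest array was LV E9 replicate 2, at 0.97. AVC E9 replicate 2 and AVC E10 replicate 1 were closest to each other, at 0.98, and not to arrays of their own groups. For some comparisons below the value without 1 of these arrays is given as well. A value given only once may also have changed without them.

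The clearest pattern among the 6 genes was in Dchs1 and Fat4, the ligand and receptor pair. Both were lowest in LV E9, where neither was above background on any array. Both had their highest level in AVC E10. Vangl2 was higher in the AVC than in the LV by a small amount at both ages and lower at E10 than at E9 in both tissues, so that AVC E9 had the highest and LV E10 the lowest level. Fat1 and Prickle1 were readily detected everywhere without a called difference, and Celsr1 was near background throughout and lowest in LV E10.

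**Figure D1:**
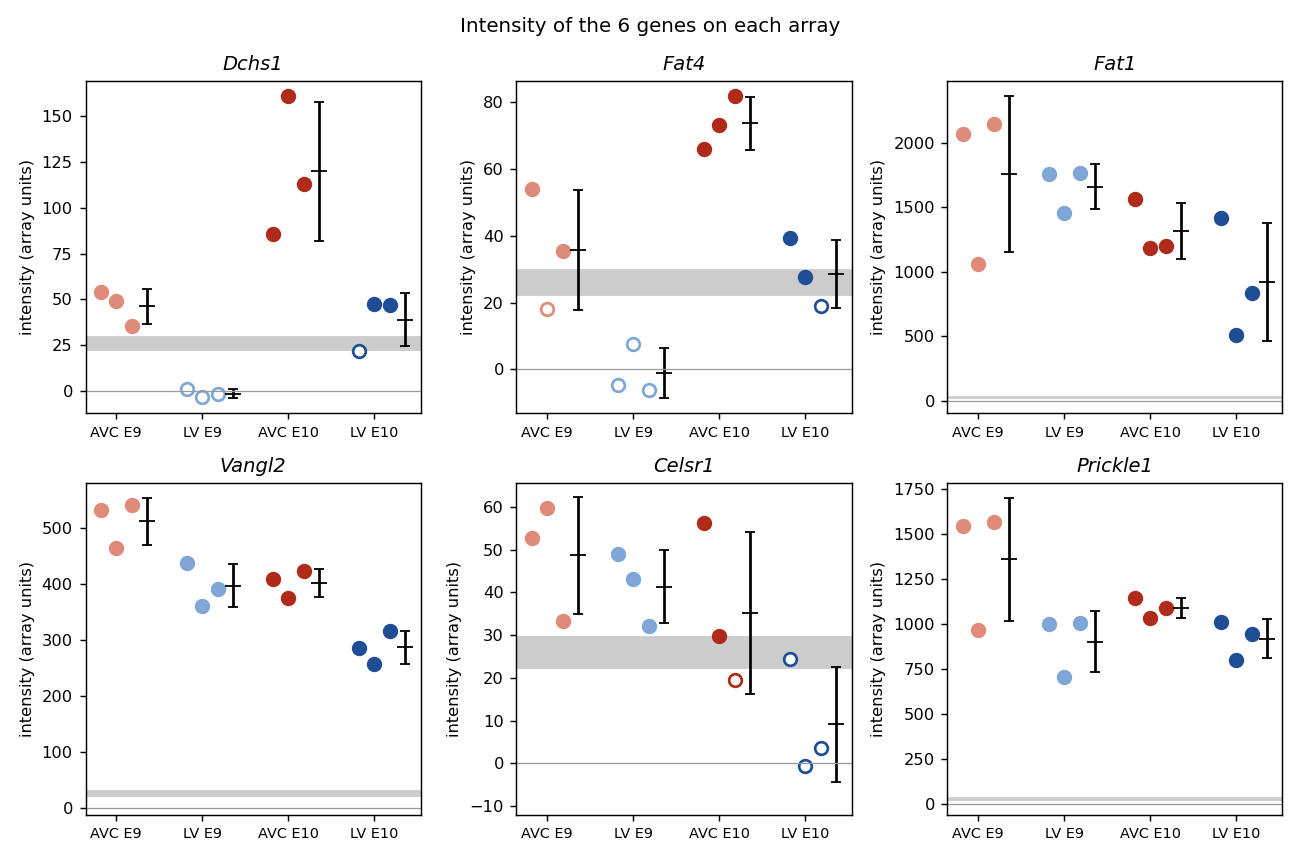
Intensity (y axis, deposited array units, linear) of each gene on each of the 12 arrays, by group, and the points of a group stand in the order of replicates 1 to 3. Filled points are above the array's background limit and open points are not, the grey band spans the limits of all arrays, 22.4 to 29.6, and the black bar is the mean with the SD over n = 3 arrays. Dchs1 and Fat4 lie below the band on all 3 LV E9 arrays and are highest in AVC E10, while Vangl2 is highest in AVC E9 and lowest in LV E10.

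Dchs1 had intensities of 54.2, 49.1 and 35.7 in AVC E9 and of 1.06, -3.36 and -1.74 in LV E9. In AVC E10 they were 85.9, 161 and 113, and in LV E10 they were 22.1, 47.4 and 47.2. Every AVC array was therefore above every LV array of the same age, and the lowest AVC E10 array was above the highest AVC E9 array. AVC E9 and LV E10 were next to each other in the order of the levels and overlapped.

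The mean of Dchs1 was 46.3 ± 9.54 (SD, n = 3) in AVC E9 against -1.35 ± 2.24 (SD, n = 3) in LV E9. The fitted log2 difference was 5.48 ± 0.33 (SE) with an adjusted p of 0.000610 by limma. All Dchs1 values come from 1 of its 3 probes, since the other two were above background on 0 of the 12 arrays and gave no further measurement. The size of this difference was set by the floor, since LV E9 was not measurably above 0, and the measured values bound it as at least 1.70-fold higher in AVC E9. The floor also took away most of the spread of LV E9, and the call was lost with values under 16 set to 16 (log2 difference 1.51, adjusted p = 0.102). The groups did not overlap under any floor used.

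At E10, Dchs1 was 120 ± 38.0 in the AVC and 38.9 ± 14.5 in the LV (SD, n = 3). The log2 difference was 1.66 ± 0.33 (SE), a fold of 3.16, with an adjusted p of 0.0449 by limma. It was a narrow call. Leaving out any single array other than LV E10 replicate 1 raised the adjusted p above 0.05, and without LV E10 replicate 1 the log2 difference was 1.29 (adjusted p = 0.0419).

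Dchs1 rose with age in the LV, from below background on all 3 arrays to above background on 2 of 3. The log2 difference of E10 over E9 in the LV was 5.17 ± 0.33 (SE, adjusted p = 0.000670, limma) and depended on the same floor. With values under 16 set to 16 it was 1.20 (adjusted p = 0.113). In the AVC, where all 6 arrays were above background, the log2 difference with age was 1.34 ± 0.33 (SE), a fold of 2.54, with an adjusted p of 0.127. It became a call without LV E10 replicate 1 (adjusted p = 0.0454), where the fit had the same difference and a smaller estimate of the spread.

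The interaction, which is the AVC minus LV difference at E10 less that at E9, was not called for Dchs1. It was -3.83 ± 0.47 (SE) on the log2 scale with an adjusted p of 0.0791. It turned to 0.15 with values under 16 set to 16, as the LV E9 values below background enter it at the floor. On the linear scale the distance between the means of AVC and LV was wider at E10 than at E9.

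Fat4 followed Dchs1 in direction in all 4 comparisons. Its intensities were 53.9, 17.9 and 35.4 in AVC E9, and -4.72, 7.52 and -6.03 in LV E9. In AVC E10 they were 65.9, 73.2 and 81.8, and in LV E10 they were 39.3, 27.6 and 18.9. AVC arrays were above LV arrays at each age without overlap, and in each tissue E10 was above E9 without overlap. AVC E9 and LV E10, which stood next to each other, overlapped.

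In Fat4 only the rise with age in the LV was called, with a log2 difference of 3.81 ± 0.77 (SE, adjusted p = 0.0457, limma). LV E9 was below background on all arrays, so this value too depended on the floor. With values under 16 set to 16 it was 0.78 (adjusted p = 0.380). The AVC minus LV log2 difference was 4.05 ± 0.77 (SE, adjusted p = 0.0557) at E9 and 1.42 ± 0.77 (SE, adjusted p = 0.497) at E10. The E9 difference was past the threshold without LV E9 replicate 2, the LV E9 array with the highest value. In AVC E9 the gene was above background on 2 of 3 arrays and in LV E10 on 2 of 3, so no bound was computed for E9. In the AVC the log2 difference with age was 1.18 ± 0.77 (SE, adjusted p = 0.638), from a mean of 35.7 ± 18 to one of 73.6 ± 7.93 (SD, n = 3).

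Over the 12 arrays the log2 values of Dchs1 and Fat4 had a Pearson r of 0.91. This is a description, since the arrays share their groups and both genes are at the floor in LV E9. The next largest values among the 15 pairs were 0.84 for Fat1 with Celsr1 and 0.74 for Fat1 with Vangl2.

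Fat1 had intensities of 2067, 1064 and 2145 in AVC E9 and of 1760, 1456 and 1765 in LV E9. In AVC E10 they were 1567, 1183 and 1200, and in LV E10 they were 1414, 512 and 835. The tissues overlapped at both ages. The lone low value in AVC E9 was replicate 2, the high one in LV E10 was replicate 1, and the highest in AVC E10 was replicate 1, which are the 3 arrays whose closest array was of the other age.

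The AVC minus LV log2 difference of Fat1 was 0.02 ± 0.38 (SE, 95% interval -0.86 to 0.90) at E9 and 0.63 ± 0.38 (SE, 95% interval -0.25 to 1.5) at E10. Without AVC E9 replicate 2 the E9 difference was 0.35 (adjusted p = 0.889). With age it was -0.36 ± 0.38 (SE, adjusted p = 0.837) in the AVC, -0.69 without that array (adjusted p = 0.447), and -0.97 ± 0.38 (SE, adjusted p = 0.209) in the LV. All LV E10 arrays were below all LV E9 arrays, with means of 920 ± 457 and 1660 ± 177 (SD, n = 3). Without LV E10 replicate 1 the log2 difference in the LV was -1.34 and was called (adjusted p = 0.0424). A second Fat1 probe, above background on all 12 arrays, had -1.14 ± 0.61 (SE) for the same comparison.

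Vangl2 had the smallest standard error of the 6 genes. Its intensities were 532, 464 and 540 in AVC E9 and 438, 361 and 391 in LV E9. In AVC E10 they were 409, 374 and 422, and in LV E10 they were 286, 258 and 316. AVC arrays were above LV arrays at each age, and E9 arrays were above E10 arrays in each tissue, without overlap. AVC E10 and LV E9, the middle levels, overlapped.

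At E10, Vangl2 was 402 ± 24.9 in the AVC against 286 ± 29.1 in the LV (SD, n = 3), a log2 difference of 0.49 ± 0.10 (SE), which is a fold of 1.41, with an adjusted p of 0.0472 by limma. At E9 the difference was 0.37 ± 0.10 (SE, adjusted p = 0.163). The log2 difference with age was -0.35 ± 0.10 (SE, adjusted p = 0.188) in the AVC and -0.47 ± 0.10 (SE, adjusted p = 0.0534) in the LV.

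The Vangl2 values have to be set against a shift of all genes. The median log2 difference of the 9931 genes above background in a group was 0.18 for AVC minus LV at E10. With quantile normalization, which removes such a shift, the Vangl2 difference was 0.29 and was not called (adjusted p = 0.123), and that of Dchs1 was 1.40 (adjusted p = 0.178). Vangl2 at E10 was past the threshold in 7 of 22 settings other than the reported one. The second probe of Vangl2 was below background on every array and gave no further measurement.

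Celsr1 had intensities of 52.7, 59.8 and 33.4 in AVC E9 and 48.8, 43.1 and 32.0 in LV E9. In AVC E10 they were 56.3, 29.7 and 19.6, and in LV E10 they were 24.4, -0.64 and 3.66. The gene was above background on all E9 arrays, on 2 of 3 AVC E10 arrays and on no LV E10 array. LV E10 lay below LV E9 without overlap and overlapped AVC E10.

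The means of Celsr1 in the LV, 41.3 ± 8.54 at E9 and 9.15 ± 13.4 at E10 (SD, n = 3), bound the difference as at least 1.63-fold higher at E9. It was not called (log2 difference -3.19 ± 0.99 SE, adjusted p = 0.128, limma). With values under 16 set to 16 it was -1.14 (adjusted p = 0.186). Without LV E10 replicate 1 it passed the test, but both arrays left in LV E10 were below background and at or near the floor, so no size is given for it. The AVC minus LV difference at E10 also grew without that array, and no size is given for the same reason. The AVC minus LV log2 difference was 0.21 ± 0.99 (SE, adjusted p = 1) at E9 and 2.84 ± 0.99 (SE, adjusted p = 0.221) at E10, and the latter fell to 0.80 (adjusted p = 0.512) with values under 16 set to 16.

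Prickle1 had intensities of 1544, 962 and 1564 in AVC E9 and 997, 702 and 1003 in LV E9. In AVC E10 they were 1142, 1031 and 1089, and in LV E10 they were 1011, 799 and 940. The tissues overlapped at E9 because of AVC E9 replicate 2, and AVC E10 lay above LV E10. Without that array the E9 difference was 0.81 on the log2 scale (adjusted p = 0.0986). With all arrays it was 0.58 ± 0.21 (SE, adjusted p = 0.314) at E9 and 0.25 ± 0.21 (SE, adjusted p = 0.686) at E10. A second Prickle1 probe, also above background on all arrays, had 0.56 ± 0.23 (SE) and 0.54 ± 0.23 (SE). With age the log2 difference was -0.29 ± 0.21 (SE, adjusted p = 0.668) in the AVC and 0.04 ± 0.21 (SE, adjusted p = 1) in the LV.

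**Figure D2:**
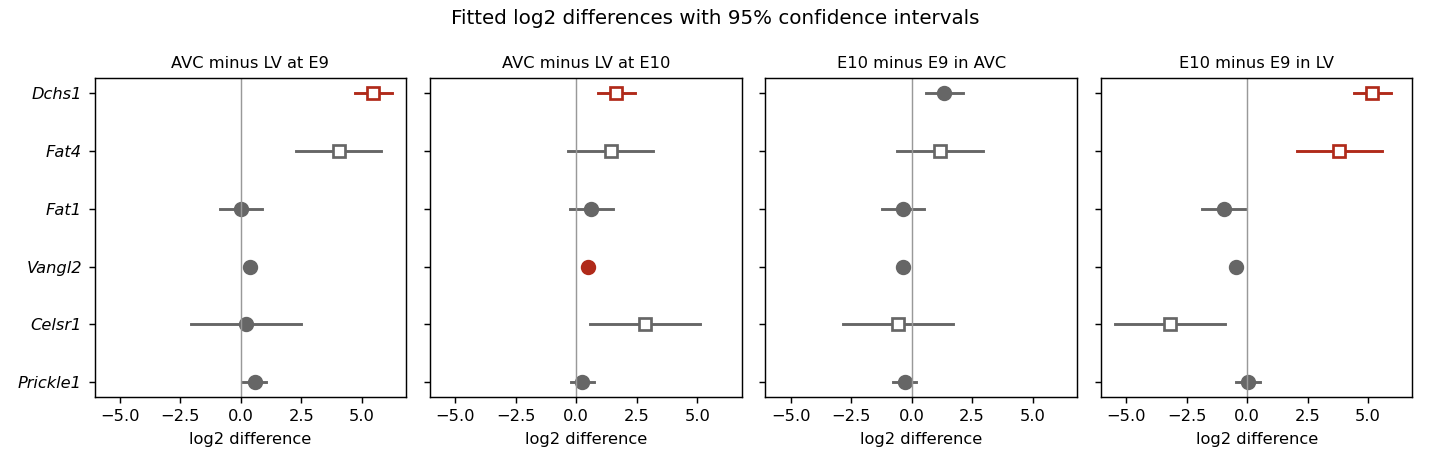
Log2 differences (x axis) of the 6 genes in the 4 comparisons, with 95% confidence intervals of the limma fit over 12 arrays, where red marks adjusted p under 0.05. Filled circles have all 6 arrays compared above background, and open squares have at least 1 below it. The size of a square depends on the floor only where a value under 1 enters it. Dchs1 is called in 3 of the 4 panels, Fat4 for age in the LV and Vangl2 for the tissues at E10.

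Counted over the 6 genes, 1 was called higher in the AVC at E9 (Dchs1), where 0.855% of all genes tested were called higher. At E10, 2 were called higher (Dchs1 and Vangl2), against 2.06% of all genes. None was called lower in the AVC at either age. With age in the AVC 0 of the 6 were called by limma, against 0.551% of all genes in either direction, and 2 (Dchs1 and Vangl2) had an unadjusted p under 0.05. The methods' t-test likewise called 0 for that comparison. With age in the LV 2 were called higher (Dchs1 and Fat4), against 1.37% of all genes called higher, and none was called lower. The interaction called 0 of the 6 by limma, against 0.0315% of all genes in either direction, and 2 (Dchs1 and Fat4) had an unadjusted p under 0.05.

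By the arrays alone, AVC lay above LV without overlap for 3 of the 6 genes at E9 (Dchs1, Fat4 and Vangl2), where 11.8% of all genes did. At E10 it did so for 4 of 6 (Dchs1, Fat4, Vangl2 and Prickle1), against 13.1% of all genes. In the AVC, E10 lay above E9 for 2 (Dchs1 and Fat4, 10.2% of all genes) and below it for 1 (Vangl2, 5.96% of all genes). In the LV, E10 lay above E9 for 2 (Dchs1 and Fat4, 8.05% of all genes) and below it for 3 (Fat1, Vangl2 and Celsr1, 12.3% of all genes). The tissue and age comparisons share arrays, and these counts are not independent of each other. The 6 genes, and the lists that follow, were chosen with earlier results of these data known. A count beside the share of all genes is therefore no test of a set.

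The other genes of the polarity pathways gave a background for the 6. A list of 106 genes in 7 groups was followed, of which 94 had a named probe and 70 were above background in at least 1 group. Of the 88 measured genes that are not among the 6, 1 was called higher in the AVC at E9, beside 0.855% of all genes, and 7 at E10, beside 2.06% of all genes, and none was called lower. With age 0 were called in the AVC, and in the LV 2 were called higher and 1 lower, which is near the share of all genes (261 higher and 191 lower of 19057). At E10, 59 of the 64 other genes above background had a positive AVC minus LV difference, with a median of 0.45 on the log2 scale, beside 70.0% of all genes above background and their median of 0.18. At E9 it was 47 of 64, with a median of 0.18, beside 60.4% of all genes and a median of 0.08. The called E10 differences of listed genes given below have to be set against the shift of all genes too. Apart from those of the 6, they were not repeated with other processing.

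In the Fat and Dachsous branch, Fjx1, the kinase that modifies Dchs1 and Fat4, was 120 ± 27.9 in AVC E10 against 64.6 ± 9.75 in LV E10 (SD, n = 3). The log2 difference was 0.89 ± 0.17 (SE, adjusted p = 0.0427, limma). At E9 the values ran the other way, 76.3 ± 10.3 in the AVC and 90.9 ± 0.913 in the LV (log2 difference -0.26 ± 0.17 SE, adjusted p = 0.675). Dchs1 and Fjx1 were both called higher in the AVC at E10, and Fat4 had the same direction without a call.

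In the core group, Scrib, a scaffold protein that binds Vangl2, fell with age in the LV, from 355 ± 13.2 to 189 ± 13.7 (SD, n = 3), a log2 difference of -0.91 ± 0.18 (SE, adjusted p = 0.0423, limma). In the AVC it was 270.5 ± 62.1 and 266 ± 45.8. The receptor Fzd6 (log2 difference AVC minus LV at E10 of 0.69 ± 0.27 SE), the pseudokinase receptor Ptk7 (0.64 ± 0.26 SE) and the receptor Fzd3 (0.63 ± 0.18 SE) were not called. Of the 9 core genes beside the members that were above background, 8 had a positive difference at E10, where 70.0% of all genes above background did. Their median of 0.48 was close to the 0.49 of Vangl2.

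Among the Wnt ligands and co-receptors, the receptor Fzd7 had the largest called difference of the lists at E10. It was 473 ± 118 in AVC E10 against 95.7 ± 39.3 in LV E10 (SD, n = 3), a log2 difference of 2.36 ± 0.44 (SE, adjusted p = 0.0368, limma). At E9 its difference was 2.08 ± 0.44 (SE, adjusted p = 0.0787). Its close relative Fzd2 had 1.40 ± 0.30 (SE, adjusted p = 0.0564) at E10. The ligand Wnt5a, which is known to act through Vangl2 and Ror2, had -0.66 ± 0.20 (SE, adjusted p = 0.209) at E9 and 0.02 ± 0.20 (SE, adjusted p = 1) at E10. The related ligand Wnt5b rose with age in the LV by at least 2.63-fold (71.5 ± 14.2 at E10, below background on all LV E9 arrays, adjusted p = 0.0409, limma), and had nearly the same mean in AVC E10, 75.4 ± 13.0 (SD, n = 3).

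Of the effectors, the kinase Mapk9 (JNK2) was 1766 ± 81.3 in AVC E10 and 1348 ± 92.0 in LV E10 (SD, n = 3), a small log2 difference of 0.39 ± 0.08 (SE, adjusted p = 0.0441, limma). The formin Daam1, an actin regulator downstream of Dishevelled, had -0.44 ± 0.23 (SE, adjusted p = 0.563) at E9 and 0.24 ± 0.23 (SE, adjusted p = 0.740) at E10. Wdpcp, a scaffold of polarity and cilia, had 0.86 ± 0.38 (SE, adjusted p = 0.443) at E9.

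The Hippo pathway restrains growth through the co-activators Yap1 and Taz and is one route through which Fat4 acts. In it, 2 of 20 measured genes were called higher in the AVC at E10, where 2.06% of all genes were. Frmd6, an upstream regulator, had means of 399 ± 64.7 in the AVC and 205 ± 12.8 in the LV (SD, n = 3), and its log2 difference was 0.95 ± 0.18 (SE, adjusted p = 0.0381, limma). Mob1b, a co-activator of the Lats kinases, had means of 237 ± 37.5 and 147 ± 5.47 (SD, n = 3), with 0.67 ± 0.12 (SE, adjusted p = 0.0291) on the log2 scale. Tead2, a DNA-binding partner of Yap1, had 0.70 ± 0.24 (SE, adjusted p = 0.212), and Ccn1, a common target of Yap1, had 0.91 ± 0.54 (SE, adjusted p = 0.545). Lats2 passed the test for age in the LV but was below background on every array, so it has no measured change.

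The primary cilium is positioned by planar polarity and carries hedgehog signalling. Kif3a, the kinesin motor subunit needed to build it, was the sole listed gene beside Dchs1 called at both ages. It was 530 ± 46.8 against 242 ± 54.4 at E9 (log2 difference 1.15 ± 0.14 SE, adjusted p = 0.0142, limma) and 530 ± 16.7 against 299 ± 16 at E10 (0.83 ± 0.14 SE, adjusted p = 0.0260). Its partner Kif3b had 0.04 ± 0.20 (SE) and 0.57 ± 0.20 (SE, adjusted p = 0.218), and the transport protein Ift88 had 0.31 ± 0.15 (SE) and 0.51 ± 0.15 (SE, adjusted p = 0.151).

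Of the hedgehog genes, the ligand Dhh was 197 ± 8.12 in AVC E10 and 51.1 ± 38.4 in LV E10 (SD, n = 3), where it was above background on 2 of 3 arrays, with a log2 difference of 2.21 ± 0.44 (SE, adjusted p = 0.0441, limma). The transcription factors Gli3 (1.09 ± 0.29 SE, adjusted p = 0.112) and Gli2 (1.06 ± 0.59 SE, adjusted p = 0.511) were not called at E10. All 7 hedgehog genes above background had a positive difference at E10, with a median of 0.75. Of all genes above background 70.0% did, with a median of 0.18.

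**Figure D3:**
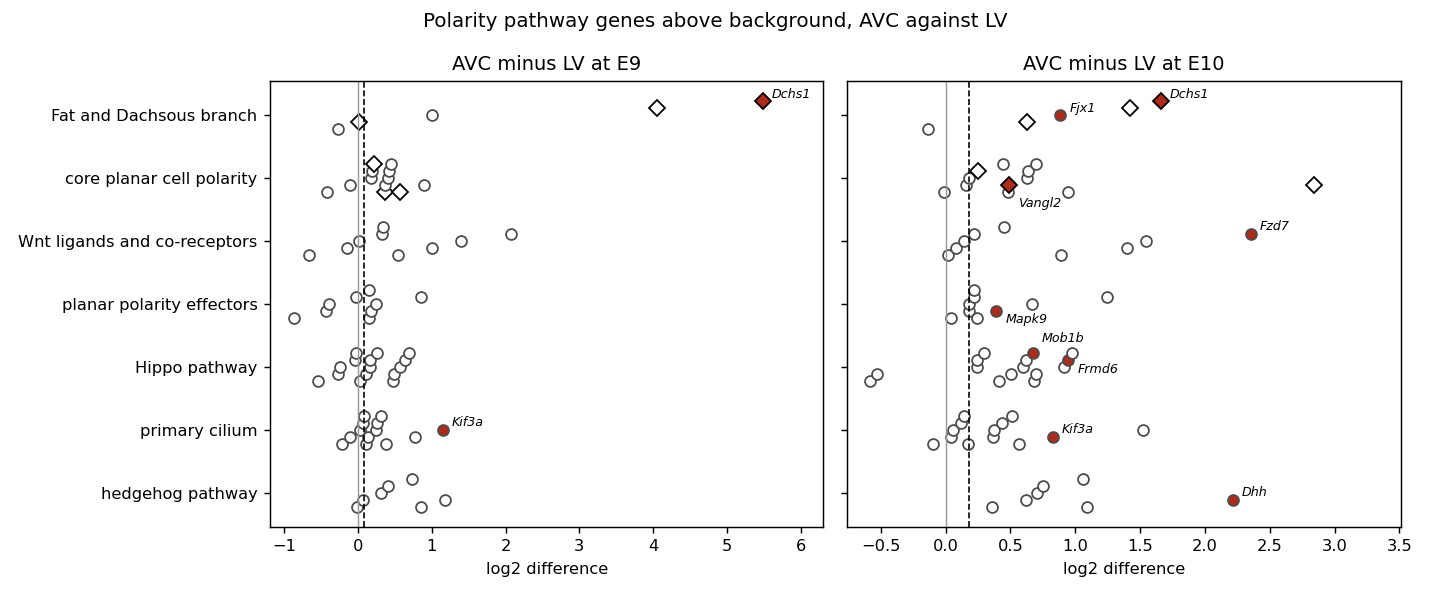
Log2 difference of AVC minus LV (x axis) at E9 and at E10 for the 70 polarity pathway genes above background in a group, by list (y axis, points are staggered vertically only to be seen). Diamonds are the 6 genes and circles the others, red fill marks adjusted p under 0.05 with the symbol beside it, and the dashed line is the median of all 9931 genes above background. Most points lie to the right of 0 at E10, where the median of all genes is 0.18.

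Markers of cell types moved with the comparisons as well. Of the 8 cushion mesenchyme markers, 4 were called higher in the AVC at E9 and 5 at E10, beside 0.855% and 2.06% of all genes. The 7 that were above background in a group all had a positive difference at both ages, beside 60.4% of all such genes at E9 and 70.0% at E10. The sums of the list did not overlap between the tissues. These are bulk samples, in which fewer cells of a type and less RNA per cell cannot be told apart. Sox9, a transcription factor of cushion mesenchyme, had means of 2386 ± 507 in AVC E9 and 2737 ± 260 in AVC E10 against 574 ± 254 and 795 ± 374 in the LV (SD, n = 3). The part of cells with these markers in the tissue differences of Dchs1, Fat4 and Vangl2 was not tested.

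With age, the epicardial and proepicardial sum of 7 markers was 776 to 1156 in AVC E9 and 5203 to 5606 in AVC E10, and 553 to 1207 in LV E9 and 3078 to 6940 in LV E10. In each tissue the E10 sums were above the E9 sums without overlap, as were the values of Dchs1 and Fat4. Of the 7 markers, 1 was called higher with age in the AVC and 2 in the LV, beside 0.43% and 1.37% of all genes. Krt19 went the other way without a call, from 227 to 191 in the AVC and from 298 to 264 in the LV. Msln was below background on every array. Tcf21, an epicardial transcription factor, had means of 228 ± 71.8 and 1641 ± 423 in the AVC and of 101 ± 66.3 and 988 ± 460 in the LV (SD, n = 3). Endothelial sums were higher at E10 as well, at 2860 to 4379 at E9 and 5223 to 6977 at E10 over both tissues. Of the 8 endothelial markers, 0 were called with age in the AVC and 1 was called higher in the LV, beside 1.37% of all genes. In the LV, 6 of the 7 above background in a group had a positive difference. Emcn had the largest part in the LV sum's rise, from 1242 to 3103, while Nfatc1 went from 257 to 212. The sum of 8 endoderm epithelium markers was 2184 to 4266 in AVC E9 and 575 to 1779 in AVC E10, and 1089 to 2682 in LV E9 and 484 to 1560 in LV E10. Its defining markers Foxa1, Foxa2, Epcam, Nkx2-1 and Shh were below background in all groups, and most of the sum was Krt8. The part of these cell types in the age differences of the 6 genes was not tested. The sum of 5 hepatic endoderm markers was 261 to 490 in LV E9 and 268 to 2837 in LV E10, and that of 5 erythroid markers was 79703 to 106521 in the AVC and 85255 to 121279 in the LV. The 6 markers of neural crest and neural ectoderm had no member above background on all 3 arrays of a group.

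LV E10 replicate 1 had the lowest epicardial sum of its group, 3078, and the highest endoderm sum, 1560. Its hepatic endoderm sum was 2837 against 687 and 268 on the other two arrays, and its erythroid sum 120191 against 97651 and 85255. In the 6 genes it had the lowest Dchs1 and the highest Fat4, Fat1, Celsr1 and Prickle1 value of LV E10. Without it, 5 of the 6 genes were called for age in the LV, namely Dchs1 and Fat4 higher and Fat1, Vangl2 and Celsr1 lower. In that setting 6.58% of all genes were called higher and 7.23% lower, and the calls of Dchs1, Fat4 and Celsr1 rest on values at the floor.

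**Figure D4:**
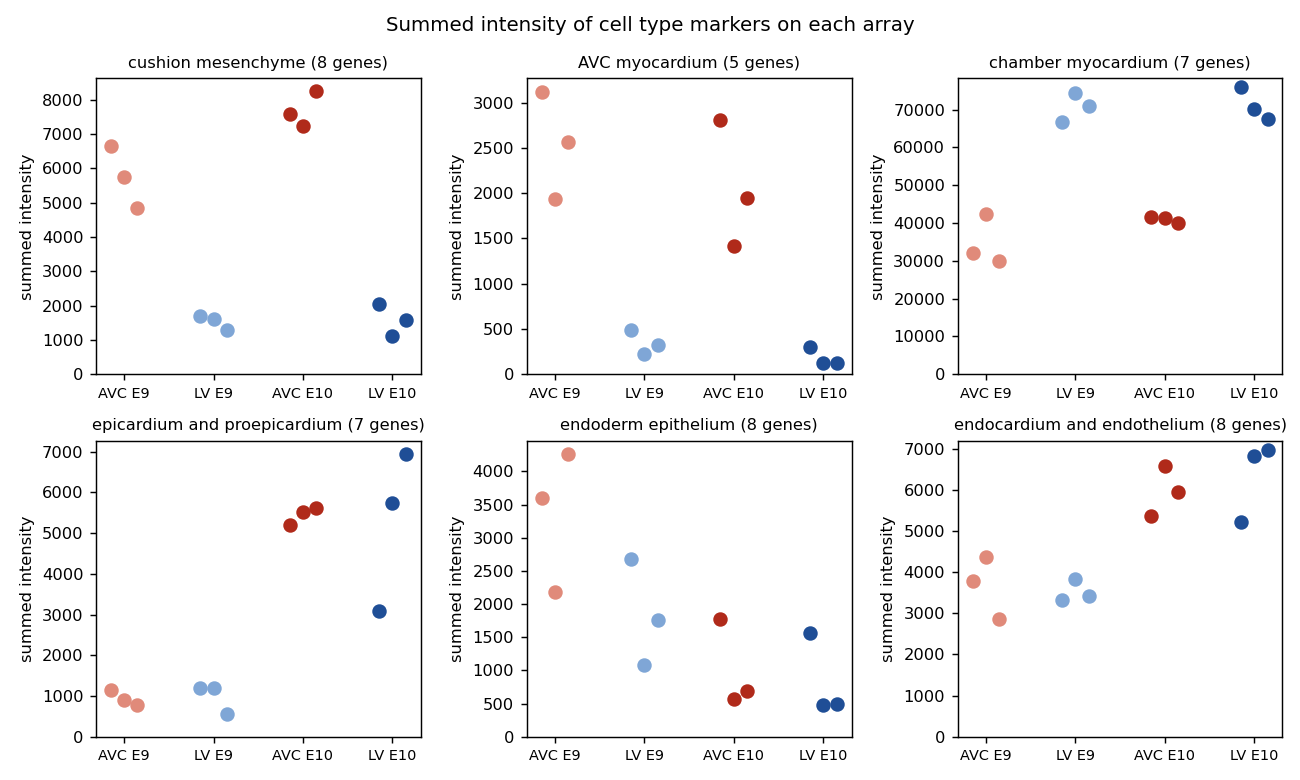
Summed intensity (y axis, deposited array units, linear from 0) of 6 lists of cell type markers on each array, by group, where each point is 1 array. Cushion mesenchyme sums are 4842 to 8263 in the AVC and 1122 to 2058 in the LV, and epicardial sums are higher at E10 than at E9 in both tissues, with LV E10 replicate 1 at 3078.

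The genes whose log2 values followed those of each member most closely over the 12 arrays were taken from 9930 genes above background, as a description of these arrays. For Dchs1 they were Nnat (r = 0.98), 4930455G09Rik, Fam214a, Ypel3 and Sat2 (r = 0.96). For Fat4 they were Zfp579 (r = 0.96), Nr2f2, Cdc42ep3, Mpp3 and Ctf1. For Vangl2 they were Atp2a1 (r = 0.96), Prdm6, Has2, Ccdc120 and Wwc1. Has2, the synthase of cushion hyaluronan, was 979 ± 198 and 473 ± 212 in the AVC at E9 and E10, and 268 ± 76.8 and 64.6 ± 22.4 in the LV (SD, n = 3), and so had the same order of the group means as Vangl2. For Fat1 they were Lpp (r = 0.98), Zdhhc21, Igf1r, Tm9sf4 and Timeless. For Celsr1 they were Zfp239 (r = 0.95), Ahsa2, Stt3b, Gata5os and Pcdhga4, and for Prickle1 Wnk2 (r = 0.94), Kif1b, Rfx3, 2900026A02Rik and Unc5b.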

How the data were processed

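Intensity values deposited by the authors were used, 1 column for each of 12 arrays. They were on a linear scale with the same mean of 386 on every array over 45281 probes and with values below 0, so they had been background subtracted and scaled but not quantile normalized. Which program made them is stated neither in the labels nor in the methods, which name GeneSpring GX and a filter on signals below background for the comparisons of the study itself. Of the probes, 34885 had 1 gene symbol in the platform's annotation, 18 had several and 10378 had none listed. The last 2 kinds were not used for genes. In all 34807 probes were matched to the reference genes. Coordinates are left out, since no genome build is named.

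A floor of 1 was put under all values (36.8% of them were lower), and limma 3.58.1 was applied to the log2 values in R 4.3.3 (with data.table, version 1.17.8, and statmod 1.5.0), with 4 groups together and 8 residual degrees of freedom. Two-sided p-values of each contrast were adjusted over 19057 genes (Benjamini-Hochberg). A bound of at least N-fold is given where a group was above background on all arrays and the other on none. It sets the mean of the bright group against, in each array of the dim group, the higher of its lowest detectable signal and its own value. Genes named were the 6 members, listed polarity genes called in a contrast and above background in a group compared, up to 4 more a list with the largest tissue differences, and the 5 genes most correlated with each member. The scripts were tested on simulated data. Arrays have no read depth, and their number limits the precision. The members and lists were chosen with earlier results of these data known.

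Alternatives were quantile normalization, higher floors, a filter on genes below background, the mean of all probes of a gene, the replicate number as a block, fits of only the groups compared, another variance model, array weights, leaving out arrays, and the methods' t-test. Figures were drawn with matplotlib.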

Additional observations from a re-analysis of the deposited data

How the results depend on the processing

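These results are limited by the number of arrays and by signal over background. Dchs1 was called at E9 and for age in the LV in 20 of 22 limma settings and was lost in both with the higher floors. By the methods' t-test after Benjamini-Hochberg adjustment it was called at E9 and lost for age in the LV. Its difference at E9 was 1.51 with values under 16 set to 16 and 0.77 with values under each array's limit set to that limit. Every other call was narrow. At E9, with 1 member called in the report, 0 were called under both higher floors, 2 (Dchs1 and Fat4) with genes below background left out and with array weights, and 2 (Dchs1 and Vangl2) with the replicate block. At E10, with 2 called, it was 0 with quantile normalization, with only the groups compared and by the methods' t-test at either threshold, 1 with genes below background left out, with the mean of all probes, with the replicate block (Vangl2) and with the trended variance, and 4 with LV E10 replicate 1 and AVC E9 replicate 2 left out together. Dchs1 at E10 missed the threshold at 1.40 with quantile normalization, 0.84 with the mean of all probes, and 1.66 with the replicate block and with only the groups compared. For age in the AVC, with 0 called, it was 1 with the limit as floor, 2 with array weights and 1 without both arrays. For age in the LV, with 2 called, it was 0 with values under 16 set to 16 and by the methods' t-test after Benjamini-Hochberg adjustment, 1 with the limit as floor, with only the groups compared, with the trended variance and by the methods' t-test at the study's thresholds, and 5 with array weights and without both arrays. The interaction called 1, Dchs1, with genes below background left out, with array weights and without both arrays. Leaving out 1 array at a time gave 1 to 2 members at E9, 0 to 2 at E10, 0 to 1 for age in the AVC, 1 to 5 for age in the LV and 0 to 1 for the interaction, and Dchs1 at E10 ran from 1.29 to 1.88. Some directions turned. Fat1 at E9 was -0.0066 with quantile normalization and -0.16 to 0.35 with 1 array left out. Vangl2 for age in the AVC was 0.059 with the mean of all probes, which takes in a probe below background on every array. Prickle1 for age in the LV was -0.094 with array weights, -0.037 without both arrays and -0.13 to 0.13 with 1 array left out. The interaction turned to 0.15 and 0.75 for Dchs1, and to 0.40 and 0.92 for Fat4, with values under 16 and under the limit raised. The cause of the other changes was not tested. Counts over all genes moved as well, from 195 to between 54 and 636 at E9, from 438 to between 10 and 2143 at E10, from 105 to between 13 and 2050 for age in the AVC, from 452 to between 26 and 3997 for age in the LV, and from 6 to between 2 and 67 for the interaction.

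Replicate numbers are not said to pair the arrays, and the data do not settle whether they do. Deviations of same-numbered arrays correlated over 0.1 in 9 of 18 pairs (-0.37 to 0.52, median 0.10), beside 9 of 36 different-numbered pairs (median -0.08). Many of these pairs join E9 with E10 arrays, which cannot share embryos. Deviations were taken from the mean of a group and cancel out within it. A high correlation in some pairs therefore pulls others down, and the pairs are not independent of each other. Between AVC and LV at E9 every array correlated best with its own number (0.23, 0.09 and 0.28), a hint from the data and not from the design. At E10 the same-numbered AVC and LV arrays had -0.10, 0.10 and 0.12. With the replicate number as a block in limma, Vangl2 was called at E9 (adjusted p = 0.0474) and for age in the LV (adjusted p = 0.0182). Dchs1 at E10 (adjusted p = 0.0617) and Fat4 for age in the LV (adjusted p = 0.0611) were not called with it. The block left 2 members called for age in the LV (Dchs1 and Vangl2) and changed no other call of a member.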
